A study of Rattus norvegicus with 13 samples.

Results

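The genes described here carry thyroid hormone across membranes or bind it. They are 7 genes, picked by name: *Slco1c1*, *Slc16a10*, *Slc7a5*, *Slc7a8*, *Slc3a2*, *Ttr* and *Crym*. Each had a single row in a table of 14716 rows, of which 13228 carried a gene name, and all 7 passed a filter that required a mean normalized count of at least 10 over the pups. The RNA came from the posterior ventricular zone (VZ) of Long Evans rat pups on postnatal day 2. The control group was 7 male pups whose dams drank vehicle water and which the labels call euthyroid. The PTU group was 6 male pups whose dams drank water with 3 ppm propylthiouracil (PTU), a drug that blocks hormone synthesis in the thyroid, and which the labels call hypothyroid. Every pup came from a different litter, so a pup is the replicate. The epithelium at the ventricle was cut by laser from frozen sections, so each library holds a mixture of cell types, and fewer cells of a type cannot be told apart from less RNA per cell.

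Thyroid hormones are charged amino acid derivatives that need carrier proteins to cross plasma membranes. In the rodent brain, *Slco1c1* encodes OATP1C1, a carrier with high affinity for thyroxine at the blood-brain barrier and in astrocytes, and *Slc16a10* encodes a monocarboxylate family carrier of aromatic amino acids and triiodothyronine. *Slc7a5* and *Slc7a8* encode the light chains LAT1 and LAT2 of system L amino acid transporters, which also accept iodothyronines, and *Slc3a2* encodes the heavy chain that both light chains need to reach the membrane. Transthyretin, the product of *Ttr*, is the thyroxine carrier that choroid plexus epithelium secretes into cerebrospinal fluid. Mu-crystallin, the product of *Crym*, is a cytosolic protein that binds triiodothyronine in the presence of NADPH.

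The step between low values gave estimated totals of 22294710 to 43511318 reads in the control pups and 28413698 to 44384813 in the PTU pups. The highest 3 rows together took 32.4% to 60.1% of the total in controls and 23.9% to 57.0% in PTU pups. All 10 radial glia and VZ markers were read in every pup, and their summed normalized counts lay between 62176 and 104572. The 13 markers of choroid plexus, which lies beside the VZ in these sections, were also above 0 in every pup and summed to between 5094 and 23768. Sums of the markers of cell types in which a gene is known to be made are given beside it below. Row lengths were not analysed here, so counts are compared within a gene and not between genes.

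None of the 7 genes passed the adjusted test. Differences between the groups were fitted for 14606 rows with limma on log2(normalized count + 1), and the Benjamini-Hochberg adjusted p-value had to be at most 0.05. The test called 0 rows (0% of those tested), with a smallest adjusted p of 0.0981, while 2383 rows (16.3%) had an unadjusted p under 0.05. Limma's voom on estimated reads also called 0. The count depended on the fit: 40 rows were called with weights for the pups, 18 with a block for the replicate number and 179 without PTU pup 2. Of the 7 genes, 4 had an unadjusted p under 0.05. These were *Ttr*, *Slco1c1* and *Slc7a8* with lower means in the PTU pups, against 8.2% of all rows in that direction, and *Crym* with a higher mean, against 8.11%. With the pups set to equal totals, the rows with an unadjusted p under 0.05 were 81 lower and 1584 higher, against 1198 lower and 1185 higher as deposited. The median log2 fold change was -0.27 over the 7 genes and 0.00 over all rows. No gene of the 7 had groups that did not overlap, which held for 87 rows (0.596%).

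**Figure D1:**
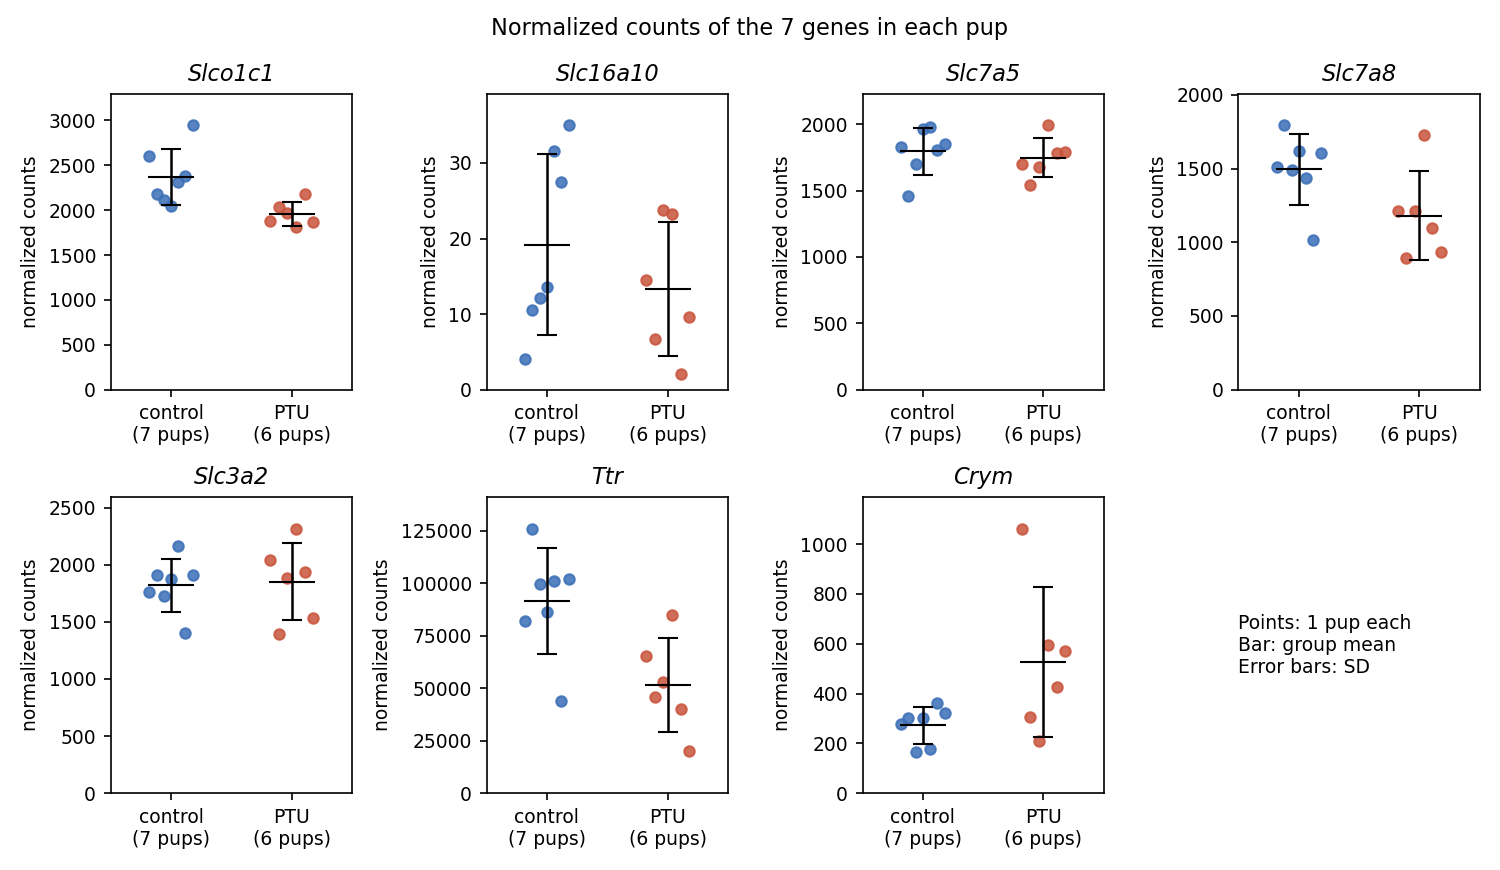
Normalized counts (linear axes from 0) of the 7 genes in each of 7 control and 6 PTU pups, 1 point per pup, with the group mean and SD. The groups overlap in every panel, with 5 of 6 PTU pups below the lowest control for *Slco1c1* and 4 of 6 above the highest control for *Crym*.

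*Slco1c1*, the thyroxine carrier OATP1C1, was lower on average in PTU pups and the PTU values were tightly spread. Its normalized count ran from 2052 through a median of 2317 to 2946 in controls, and from 1807 through 1920 to 2177 in PTU pups. All 6 PTU pups lay below the control mean, as they did for 8.39% of all rows, and 5 lay below the lowest control. The means were 2369 ± 314 (SD, n = 7) and 1955 ± 135 (SD, n = 6), a ratio of 0.825. The fitted log2 fold change was -0.27 (SE 0.09, 95% interval -0.46 to -0.08, limma adjusted p = 0.174), and an exact permutation test over the 1716 regroupings of the pups gave a two-sided p of 0.00641. With equal totals set for the pups, a scaling that moved the median of all rows to 0.20, the log2 fold change of *Slco1c1* was -0.07.

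Because *Slco1c1* is made by brain endothelial cells and astrocytes, it was also divided by the summed markers of each within a pup. These ratios were chosen after the data were seen. The ratio to 9 endothelial markers ran from 0.566 to 0.835 in controls, with a median of 0.702, and from 0.422 to 0.706 in PTU pups, with a median of 0.507. The log2 difference was -0.40 (exact permutation p = 0.0175, adjusted p = 0.086 over 5 such ratios). It was -0.49 without PTU pup 2 (exact adjusted p = 0.0158), the only 1 of 15 alternatives that passed, and -0.34 without PTU pup 6 (exact adjusted p = 0.161). The endothelial sum itself was 2845 to 3766 in controls and 2884 to 4432 in PTU pups, and 0 of its 9 measured genes had an unadjusted p under 0.05 (16.3% of all rows). Of the 9, 8 had a log2 fold change above 0, the largest in *Esam* (0.41), *Tie1* (0.41) and *Cdh5* (0.27). Their median was 0.16, so the ratio difference is not that of *Slco1c1* alone. After the group means were removed, *Slco1c1* correlated with this sum at -0.11 over the 13 pups (0.28 in controls, -0.74 in PTU pups). The endothelial genes *Cldn5*, *Flt1* and *Abcb1a* were not analysed here. The ratio to 6 astrocyte markers had a median of 0.0723 in controls and 0.0692 in PTU pups, with a log2 difference of -0.04 (exact permutation p = 0.744, adjusted p = 0.744). All 6 astrocyte markers had lower means in PTU pups, with *Aqp4*, the water channel of astrocyte endfeet, at -0.31 and *Aldh1l1*, a folate enzyme, at -0.55 on the log2 scale (limma adjusted p = 0.206 and 0.143). The median of the 6 was -0.19, and it was 0.0067 with equal totals and -0.10 without PTU pup 6. Their summed count was 28404 to 36565 in controls and 20011 to 32295 in PTU pups. The part of astrocytes or vessels in the *Slco1c1* values was not tested.

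*Slc16a10*, the carrier of aromatic amino acids and triiodothyronine, was close to the lower limit of what these libraries could measure. Its normalized count was 4.00 to 35.0 in controls, with a median of 13.6, and 2.03 to 23.8 in PTU pups, with a median of 12.1. The values correspond to about 2 to 34 estimated reads in a pup. The groups overlapped over most of their range. The means were 19.2 ± 11.97 (SD, n = 7) and 13.3 ± 8.87 (SD, n = 6), and the log2 fold change of -0.54 had a 95% interval from -1.76 to 0.69 (SE 0.58, limma adjusted p = 0.668, exact permutation p = 0.391). Leaving out 1 pup moved it between -0.83 (without control pup 1) and -0.15 (without PTU pup 5).

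The heavy chain *Slc3a2* is shared by LAT1 and LAT2, so its start regions are shown with that of *Slc7a8*, the light chain whose ratio to it differed between the groups. The sequences are the 250 bases before each RefSeq start in build GRCr8, which is not the build of the counts, on the minus strand and written in the direction of transcription. Capitals mark AGGTCA, the core letters that thyroid hormone receptors bind.

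Slc3a2, first promoter, chr1:215039671-215039920: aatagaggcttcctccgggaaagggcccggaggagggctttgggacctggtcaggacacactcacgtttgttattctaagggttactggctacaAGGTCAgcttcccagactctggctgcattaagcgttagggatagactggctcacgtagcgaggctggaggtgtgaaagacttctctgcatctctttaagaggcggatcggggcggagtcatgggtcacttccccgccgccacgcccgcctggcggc
Slc3a2, second promoter, chr1:215048065-215048314: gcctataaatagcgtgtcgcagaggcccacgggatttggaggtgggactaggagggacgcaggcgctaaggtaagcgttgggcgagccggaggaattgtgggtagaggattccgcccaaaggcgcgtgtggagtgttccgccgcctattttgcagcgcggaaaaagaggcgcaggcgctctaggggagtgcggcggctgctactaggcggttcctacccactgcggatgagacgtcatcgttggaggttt
Slc7a8, chr15:32212716-32212965: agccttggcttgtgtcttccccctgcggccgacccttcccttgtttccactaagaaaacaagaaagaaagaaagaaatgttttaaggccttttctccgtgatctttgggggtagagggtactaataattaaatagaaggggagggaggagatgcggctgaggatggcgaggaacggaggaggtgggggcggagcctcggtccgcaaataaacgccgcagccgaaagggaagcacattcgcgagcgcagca

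The letters AGGTCA, searched on both strands, lay at bases 95 to 100 of the first *Slc3a2* window and were not in the second *Slc3a2* window or the *Slc7a8* window. Of the 33469 promoters of 300 bases in the table, 5415 (16.18%) held these letters. A promoter was found for 5 of the 7 genes, 6 promoters in all, and the only other match among them was in *Slc16a10*, at bases 10 to 15. The direct repeat of AGGTCA with 4 bases of any kind between the copies was in 2 of all promoters (0.005976%), and the amino acid response letters TGATGNAA were in 1332 (3.98%). None of the 6 promoters held either of these. A match describes the letters and not binding.

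The heavy chain and the LAT1 light chain had similar means in the groups. *Slc3a2* ran from 1401 through a median of 1877 to 2166 in controls and from 1396 through 1909 to 2316 in PTU pups. Its means were 1821 ± 233 (SD, n = 7) and 1850 ± 337 (SD, n = 6), with a log2 fold change of 0.01 (SE 0.12, 95% interval -0.24 to 0.26, limma adjusted p = 0.965, exact permutation p = 0.917). *Slc7a5* ran from 1458 through 1826 to 1978 in controls and from 1545 through 1742 to 1992 in PTU pups. Its means were 1797 ± 177 (SD, n = 7) and 1748 ± 148 (SD, n = 6), with a log2 fold change of -0.04 (SE 0.09, 95% interval -0.22 to 0.14, limma adjusted p = 0.861, exact permutation p = 0.633). With equal totals the *Slc7a5* value was 0.16 and the *Slc3a2* value 0.21. The sign of *Slc3a2* turned when any of 4 single pups was left out, and both intervals include 0.

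The LAT2 light chain *Slc7a8* was lower on average in PTU pups. It ran from 1016 through a median of 1513 to 1794 in controls and from 894 through 1153 to 1730 in PTU pups. Of the PTU pups, 5 of 6 lay below the control mean and 2 below the lowest control, while PTU pup 4 was near the top of the control range. The means were 1496 ± 242 (SD, n = 7) and 1179 ± 302 (SD, n = 6), a ratio of 0.788. The log2 fold change was -0.36 (SE 0.15, 95% interval -0.67 to -0.05, limma adjusted p = 0.251, exact permutation p = 0.0594), and -0.16 with equal totals.

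Measured against the shared heavy chain within a pup, *Slc7a8* was lower on average in PTU pups. The ratio of *Slc7a8* to *Slc3a2* ran from 0.663 through a median of 0.859 to 0.941 in controls and from 0.566 through 0.624 to 0.747 in PTU pups. The groups overlapped in that PTU pup 4 lay above the lowest controls, pups 5 and 6. The log2 difference was -0.37 (SE 0.09, exact permutation p = 0.0035, adjusted p = 0.0105 over the 3 chain ratios). A ratio within a pup does not depend on how the pup was scaled, but the share of each chain in its difference does. With equal totals the log2 fold change was -0.16 for *Slc7a8* and 0.21 for *Slc3a2*, against -0.36 and 0.01 as deposited. The ratio of *Slc7a5* to *Slc3a2* had a median of 0.984 in controls and 0.906 in PTU pups, with a log2 difference of -0.05 (exact permutation p = 0.674, adjusted p = 0.674). The ratio of *Slc7a5* to *Slc7a8* had a median of 1.21 in controls and 1.51 in PTU pups, with a log2 difference of 0.32 (exact permutation p = 0.0781, adjusted p = 0.117). Without control pup 6 the last difference was 0.41 (exact adjusted p = 0.026), the only 1 of 17 alternatives in which it passed. Without PTU pup 6 it was 0.25 (exact adjusted p = 0.28).

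**Figure D2:**
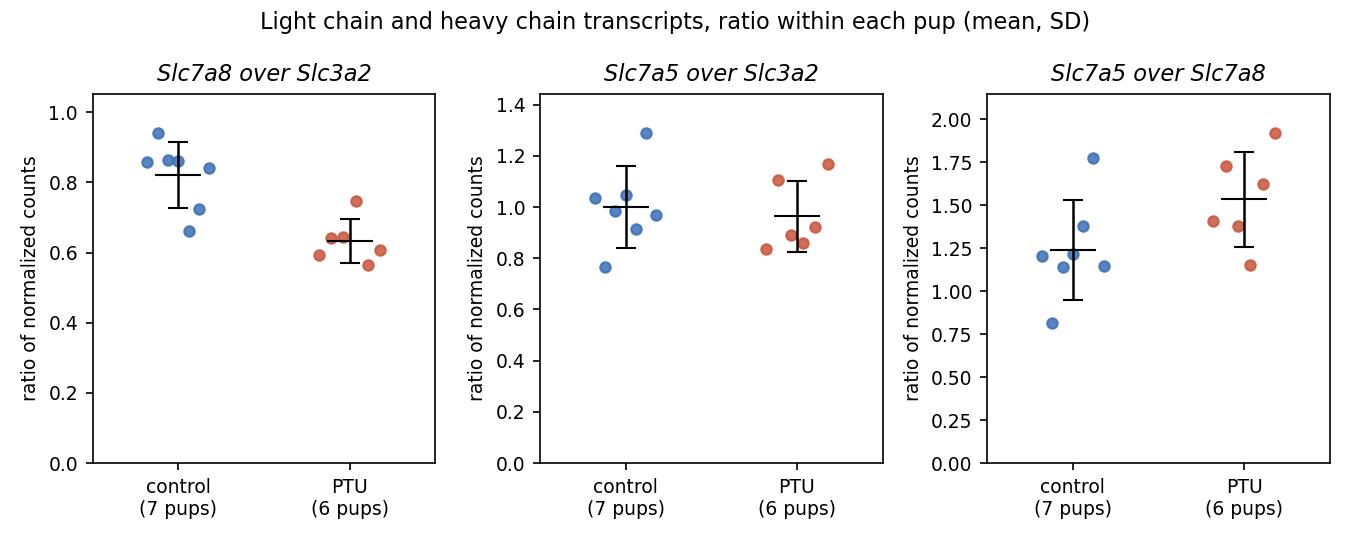
Ratio of normalized counts (linear axes from 0) of the light chains *Slc7a8* and *Slc7a5* and the heavy chain *Slc3a2* within each of 7 control and 6 PTU pups, 1 point per pup, with the group mean and SD. The *Slc7a8* to *Slc3a2* ratio lies between 0.566 and 0.747 in PTU pups and between 0.663 and 0.941 in controls, and the other ratios overlap over most of their range.

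*Ttr*, the thyroxine carrier of cerebrospinal fluid, had the lowest log2 fold change of the 7 genes. Its normalized count ran from 43986 through a median of 99496 to 125906 in controls and from 19913 through 49366 to 84875 in PTU pups. All 6 PTU pups lay below the control mean and 2 lay below the lowest control, which was control pup 6. The means were 91587 ± 25254 (SD, n = 7) and 51490 ± 22179 (SD, n = 6), a ratio of 0.562. The log2 fold change was -0.90 (SE 0.28, 95% interval -1.49 to -0.31, limma adjusted p = 0.161, exact permutation p = 0.0169). Leaving out 1 pup moved it between -1.07 (without PTU pup 4) and -0.66 (without PTU pup 6).

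The choroid plexus markers moved with *Ttr*. All 13 had lower means in PTU pups, 7 with an unadjusted p under 0.05 (8.2% of all rows in that direction), with a median log2 fold change of -0.76 against 0.00 over all rows, and none was at 0 in any pup. That median was -0.50 without PTU pup 6 and -0.94 without PTU pup 4. The 7 were *Clic6*, *Kcne2*, *Otx2*, *Aqp1*, *Sostdc1*, *Slc4a5* and *Tmem72*, with log2 fold changes between -0.88 and -0.67 (limma adjusted p from 0.156 to 0.298). The summed markers ran from 9374 through a median of 21636 to 23768 in controls and from 5094 through 11573 to 22957 in PTU pups. Control pup 6 was the lowest control and PTU pup 4 the highest PTU pup for the marker sum and for *Ttr*. After the group means were removed, the correlation of *Ttr* with the sum over the 13 pups was 0.972 on the log2 scale. The ratio of *Ttr* to the marker sum, chosen after the data were seen, ran from 4.26 through 4.60 to 5.38 in controls and from 3.70 through 4.04 to 4.92 in PTU pups. Its log2 difference was -0.20 (SE 0.08, exact permutation p = 0.0344, adjusted p = 0.086 over 5 such ratios). It was -0.25 without PTU pup 2 (exact adjusted p = 0.0158), the only 1 of 15 alternatives that passed, and -0.17 without PTU pup 5 (exact adjusted p = 0.177). The study describes its RNA-Seq samples as free of choroid plexus cells, while their markers were above 0 in every pup. The part of such cells in the *Ttr* values was not tested.

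The same marker sum also tracked *Slc7a8* and *Slc3a2*. Their within-group correlations with it over the 13 pups were 0.872 and 0.853, against 0.123 for *Slc7a5* and -0.17 for *Slco1c1*. The ratio of *Slc7a8* to the sum had a median of 0.0755 in controls and 0.0975 in PTU pups, with a log2 difference of 0.34 (exact permutation p = 0.124, adjusted p = 0.16), and of 0.17 without PTU pup 6. Other within-group correlations with a marker sum were -0.71 for *Slc16a10* with microglia, -0.72 and 0.634 for *Slc7a5* with ependymal and endothelial markers, and 0.697 for *Ttr* with astrocyte markers. Without the 2 pups farthest from the median of the sum they were -0.55, -0.30, 0.663 and 0.593 in that order. These correlations share libraries and scaling and are descriptions.

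**Figure D3:**
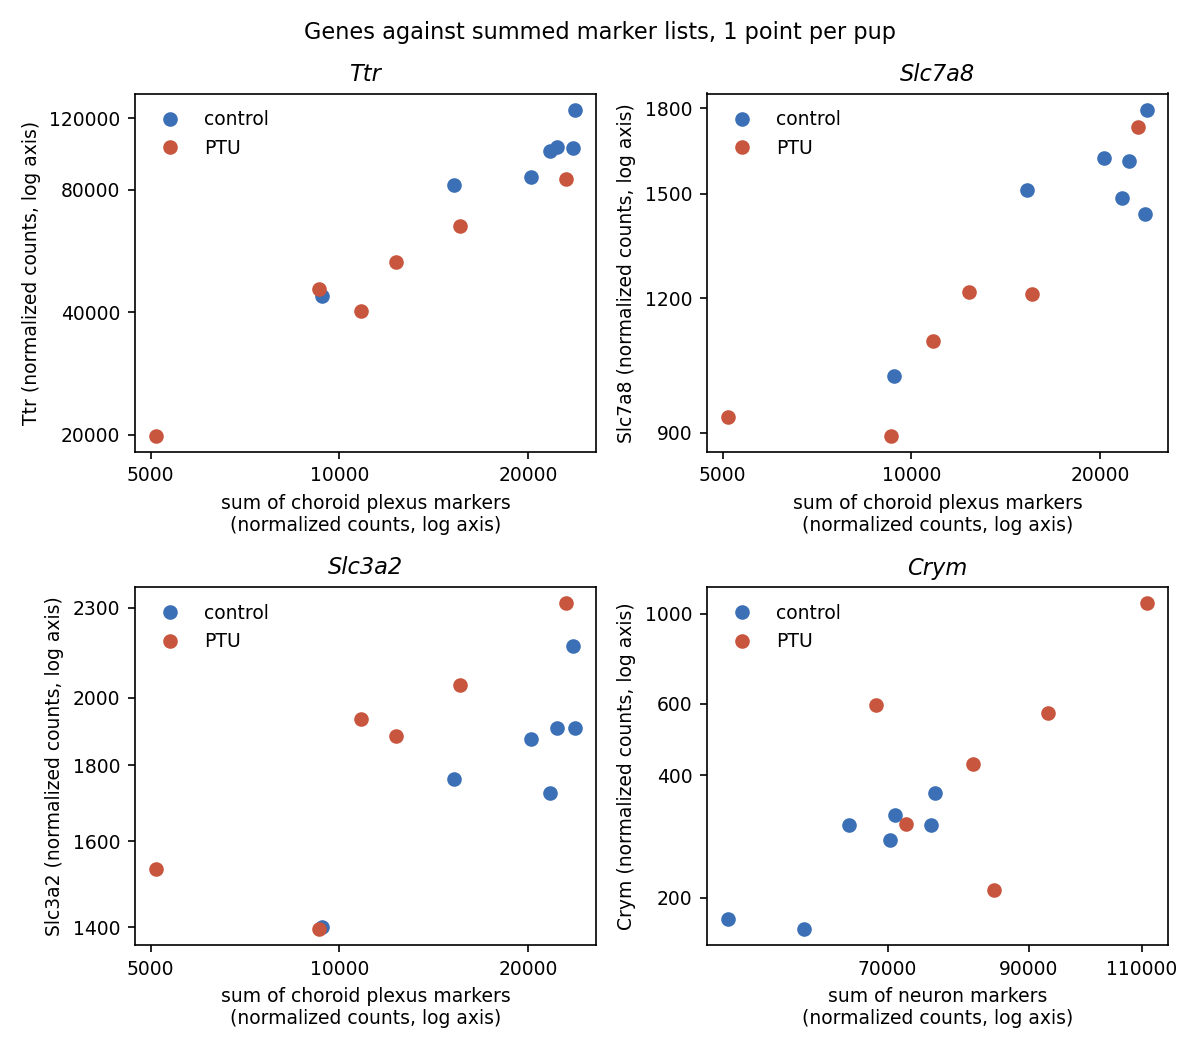
*Ttr*, *Slc7a8* and *Slc3a2* against the sum of 13 choroid plexus markers, and *Crym* against the sum of 8 neuron markers, in normalized counts on log axes, with 1 point per pup (7 control, 6 PTU). *Ttr* follows the choroid plexus sum most closely (within-group correlation 0.972), and control pup 6 lies among the PTU pups in the choroid plexus panels.

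*Crym*, the cytosolic binder of triiodothyronine, had a higher mean in PTU pups. Its normalized count ran from 167 through a median of 301 to 362 in controls and from 209 through 499 to 1062 in PTU pups. Of the PTU pups, 5 of 6 lay above the control mean and 4 above the highest control, and their spread was wider than that of the controls. The means were 272 ± 73.1 (SD, n = 7) and 528 ± 301 (SD, n = 6), a ratio of 1.94. The log2 fold change was 0.81 (SE 0.30, 95% interval 0.18 to 1.44, limma adjusted p = 0.206, exact permutation p = 0.0373). It was 0.57 without PTU pup 1, the highest, and 1.04 without PTU pup 3, the lowest of its group.

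Neuron markers were also higher on average in the PTU pups. All 8 had higher means, 4 with an unadjusted p under 0.05 (8.11% of all rows in that direction), with a median log2 fold change of 0.33, of 0.22 without PTU pup 1 and of 0.53 with equal totals. The 4 were the cytoskeletal genes *Tubb3*, *Dcx* and *Stmn2* and the synaptic vesicle fusion gene *Snap25*, with log2 fold changes of 0.33, 0.26, 0.48 and 0.77 (limma adjusted p from 0.182 to 0.273). The summed markers ran from 52667 through 70337 to 76097 in controls and from 68570 through 83080 to 111132 in PTU pups, and PTU pup 1 was the highest for both the sum and *Crym*. The within-group correlation of *Crym* with the sum was 0.632 over the 13 pups, and 0.362 without the 2 pups farthest from the median. The ratio of *Crym* to the sum, chosen after the data were seen, had a log2 difference of 0.48 (exact permutation p = 0.128, adjusted p = 0.16). It was 0.71 without PTU pup 3 (exact adjusted p = 0.0316), the only 1 of 15 alternatives that passed, and 0.32 without PTU pup 1 (exact adjusted p = 0.343). The part of neurons in the *Crym* values was not tested. The radial glia and VZ markers had lower means in PTU pups for all 10 genes, 6 with an unadjusted p under 0.05 (8.2% of all rows in that direction), with a median log2 fold change of -0.33, and of -0.12 with equal totals. The 6 were *Hopx*, *Hes1*, *Hes5*, *Pax6*, *Vim* and *Nes*, with log2 fold changes between -0.62 and -0.23 (limma adjusted p from 0.143 to 0.279).

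**Figure D4:**
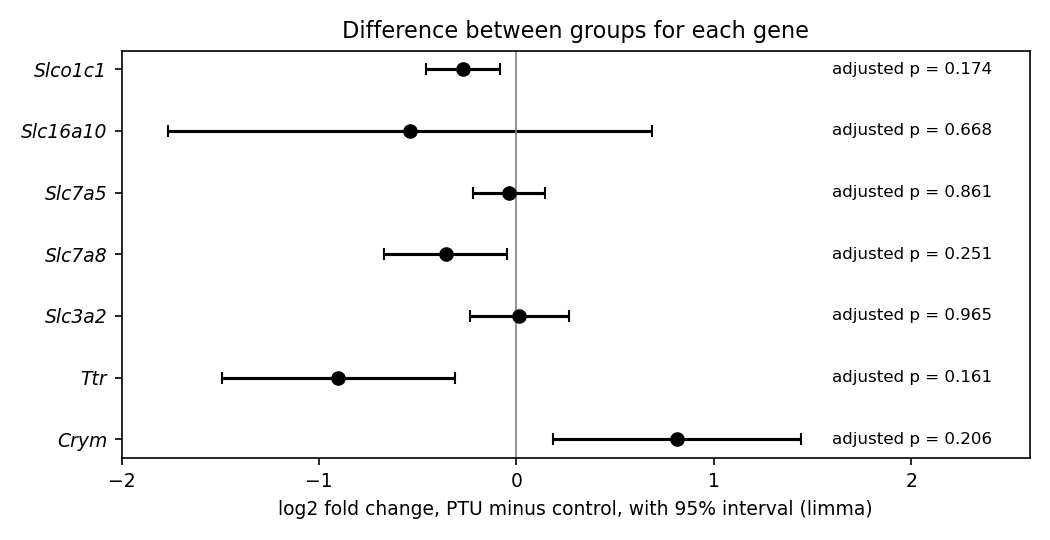
Log2 fold change of the 7 genes, PTU minus control, from limma on log2(normalized count + 1), with the 95% interval as bars and the adjusted p over all rows at the right. The intervals of *Slco1c1*, *Slc7a8*, *Ttr* and *Crym* exclude 0, and every adjusted p lies between 0.161 and 0.965.

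The 7 genes did not vary together as a set. Within groups, *Slc7a8*, *Slc3a2* and *Ttr* correlated at 0.754 to 0.853 with each other, while *Slc7a5* and its heavy chain *Slc3a2* correlated at 0.409. The named genes most like *Ttr* over the 13 pups were *Sostdc1* (0.996), *Wfikkn2* (0.959) and *Cab39l* (0.956). Those most like *Slc3a2* were *Gypc* (0.977), *Otx2* (0.957) and *Tmem72* (0.956), of which the last pair belong to the choroid plexus list. Those most like *Slc7a8* were *Sulf1* (0.931), *Car2* (0.929) and *Mmp2* (0.923). *Slc7a5* was closest to *Ndufv1* (0.935), *Wdr54* (0.905) and AABR07069490.1 (0.891), and *Slco1c1* to *Giot1* (0.883), *Ttc16* (0.804) and *Itch* (0.802). *Slc16a10* was closest to *Ing3* (0.860), *Cisd1* (0.831) and *Susd2* (0.829), and *Crym* to *Fam20c* (0.900), RGD1565987 (0.899) and *Rab3c* (0.896). These genes were picked as the highest among all rows over 13 pups, so high values can arise by chance, and none was tested. Without the 2 pups farthest from the median of the similar gene, the values ran from 0.716 (*Fam20c* with *Crym*) to 0.985 (*Sostdc1* with *Ttr*).

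Among 15 other genes named for thyroid hormone transport and binding, 5 had a row and none passed the adjusted test. *Slco3a1*, an organic anion carrier that accepts thyroxine, averaged 99.2 ± 29.8 (SD, n = 7) normalized counts among controls and 177 ± 89.1 (SD, n = 6) among PTU pups, with a log2 fold change of 0.78 (limma adjusted p = 0.22). *P4hb*, protein disulfide isomerase, had a log2 fold change of -0.18 (limma adjusted p = 0.279). *Slco1a1*, *Slco1a2*, *Slco1a5*, *Slco1a6*, *Slco4a1*, *Slc10a1*, *Slc17a4*, *Serpina7*, *Alb* and *Rbp4* were not analysed here.

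Of 14 genes of hormone metabolism, receptors and cell surface binding, 10 had a row and none passed the adjusted test. *Tshr*, the receptor for thyroid stimulating hormone, averaged 1061 ± 165 (SD, n = 7) normalized counts among controls and 751 ± 126 (SD, n = 6) among PTU pups, with a log2 fold change of -0.50 (limma adjusted p = 0.132), and it was the only 1 of the 10 with an unadjusted p under 0.05, against 16.3% of all rows. *Dio1*, *Dio3*, *Iyd* and *Sult1b1* were not analysed here.

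The relatives of the carriers were also below the threshold. Of 9 other heteromeric and system L amino acid transporters, 6 had a row and 0 had an unadjusted p under 0.05, against 16.3% of all rows. The largest absolute log2 fold changes in that list were those of *Slc43a1* (0.67), *Slc7a7* (0.66) and *Slc7a10* (-0.25), and *Slc3a1*, *Slc7a9* and *Slc7a13* were not analysed here. Of 12 other genes of the monocarboxylate carrier family and its chaperones, 10 had a row. The lactate carrier *Slc16a1* had a log2 fold change of 0.24 and *Slc16a6*, a carrier of ketone bodies, one of -0.44 (limma adjusted p = 0.278 and 0.164), and *Slc16a4* and *Slc16a9* were not analysed here. Of 12 genes of the ATF4 amino acid response, which induces several amino acid transporters, 10 had a row. The serine synthesis genes *Phgdh* and *Psat1* had log2 fold changes of -0.42 and -0.33 (limma adjusted p = 0.133 and 0.253), the cationic amino acid carrier *Slc7a1* one of 0.23 (limma adjusted p = 0.302), and *Atf3* and *Trib3* were not analysed here.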

How the data were processed

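Total RNA libraries were made with a stranded low-input kit from laser-captured VZ, 1 male pup per litter. The study reports some degradation of the VZ RNA, while hippocampal cells cut as slide controls gave intact RNA. The authors trimmed reads with Trimmomatic, mapped these with STAR (version 2.7.8a) on the mRatBN7.2 genome, and estimated transcript abundance with the expectation/maximization model of Partek. The deposited signal values are these estimated counts after the authors' median ratio normalization, so they are not raw counts. The methods name a RefSeq annotation, while most rows carry Ensembl transcript identifiers. Columns holding the authors' own comparison (p-value, FDR, ratios, least squares means) were not used. Pups were grouped by GEO labels.

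Values were taken as log2(normalized count + 1), rows with a mean under 10 were dropped, and limma 3.58.1 (R 4.3.3) with a variance trend was fitted to 14606 rows, with Benjamini-Hochberg adjustment and a threshold of 0.05. Single genes and ratios had two-sided exact permutation tests (coded with numpy 2.4.6), whose smallest possible p is 0.000583. Total reads were estimated from the step between low values. Between 88.7% and 90.2% of values from 20 to 150 were whole multiples of it within 0.05, too few to recover reads, so no count model was the main test. Correlations used log2 values centred within groups. The code was tested on simulated data.

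The 7 genes and the gene lists were chosen with earlier results of these data known. Beyond the 7, the text names list genes with an unadjusted p under 0.05 (or the 3 largest changes), list genes with no row, and the 3 genes most correlated with each. Ratios to marker sums and the fits on estimated reads were added after seeing the data. Promoters come from RefSeq in GRCr8. Other pseudocounts, filters, scalings, weights, a replicate block and leaving out each pup were tried.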

Additional observations from a re-analysis of the deposited data

Results flagged for a closer look

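The ratio of *Slc7a8* to the summed choroid plexus markers was 0.183 in PTU pup 6, apart from the other 5 PTU pups. The gap to the nearest pup was 0.759 of the range of the group, above the limit of Dixon's test for 6 samples. This was the only 1 of 30 groups of values tested that passed its limit, and chance flags about 1 group in 20. Without PTU pup 6 the log2 difference of this ratio between the groups was 0.17, against 0.34 with all pups. The difference did not pass the adjusted exact permutation test in either case.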

How the results depend on the processing

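The number of rows called was 0 and stayed 0 under most alternatives, but was 40 with array weights and 18 with the replicate block, and leaving out 1 pup gave 0 to 179 (179 without PTU pup 2, 7 without control pup 6). None of the 7 genes was called under any alternative, with a smallest adjusted p of 0.0576 (limma, *Ttr* with the replicate block). Equal totals turned *Slc7a5* to 0.16. *Slc3a2* was -0.05 without control pup 6, -0.02 without PTU pup 1, -0.055 without PTU pup 4 and -0.0035 without PTU pup 5, and leaving out 1 pup gave -0.055 to 0.090. The log2 difference of *Slc7a5* to *Slc3a2* ran from -0.11 to 0.012 and turned without control pup 6. That of *Slc7a8* to *Slc3a2* passed the test whichever 1 pup was left out, from -0.42 to -0.34, and was -0.37 with the replicate block, lower in 6 of 6 pairs, where the sign-flip p of 0.0312 is the smallest that 6 pairs can give (exact adjusted p = 0.0938). That of *Slc7a5* to *Slc7a8* ran from 0.23 to 0.41 and passed only without control pup 6. Ratios to marker sums passed only without PTU pup 2 for *Ttr* (-0.25, range -0.25 to -0.17) and for *Slco1c1* over endothelial markers (-0.49, range -0.49 to -0.34), and only without PTU pup 3 for *Crym* (0.71, range 0.32 to 0.71). *Slco1c1* over astrocyte markers ran from -0.11 to 0.014 and turned without control pup 7. Equal totals moved list medians to 0.083 (hormone metabolism), 0.31 (heteromeric transporters), 0.052 (ATF4), 0.36 (endothelial), 0.12 (pericyte), 0.0067 (astrocyte), -0.12 (radial glia), 0.075 (other hormone transport), 0.17 (monocarboxylate family) and 0.14 (ependymal). The causes were not tested. Pups with the same replicate number came from different litters and their deviations correlated at -0.07 to 0.198, with 1 of 6 PTU pups closest to the control of its own number, so the number was not taken as a pair. A filter at a higher mean left no value for *Slc16a10*.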

Other observations

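Other marker lists were measured beside the 7 genes. Of 6 pericyte markers, 2 had a log2 fold change above 0 and 4 below, with a median of -0.08 that was 0.12 with equal totals and ran from -0.13 (without control pup 6) to -0.0041 (without PTU pup 1). In that list *Pdgfrb*, a growth factor receptor, had a log2 fold change of -0.26 and *Cspg4*, a proteoglycan, one of 0.36 (limma adjusted p = 0.299 and 0.233). Of 5 measured ependymal markers, 1 had a log2 fold change above 0 and 4 below, with a median of -0.06 that was 0.14 with equal totals and ran from -0.21 (without control pup 5) to 0.03 (without PTU pup 6). In that list *Dynlrb2*, a dynein light chain, had a log2 fold change of -1.04 (limma adjusted p = 0.122) and *Rsph1*, a radial spoke gene of cilia, one of -0.46 (limma adjusted p = 0.263), and *Foxj1* was not analysed here. Of 6 microglia markers, 4 had a log2 fold change above 0 and 2 below, with a median of 0.04 that was 0.24 with equal totals and ran from -0.02 (without control pup 4) to 0.14 (without control pup 1). In that list *C1qa* of the complement system had a log2 fold change of -0.50 (limma adjusted p = 0.284). Of 5 red blood cell markers, *Hba-a2* had a row, with a log2 fold change of -0.47 (limma adjusted p = 0.396), of -0.27 with equal totals, and between -0.71 (without PTU pup 4) and -0.29 (without PTU pup 3) when 1 pup was left out, and *Hba-a1*, *Hbb*, *Alas2* and *Slc4a1* were not analysed here.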
